A study of Homo sapiens with 66 samples.

Results

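NUP50-NeonGreen-AID cells treated with auxin for 9 h were compared with untreated cells of the same line across all genes. The comparison rests on 6 of the 66 RNA-seq libraries of the series, the 3 labelled auxin 9 h and the 3 labelled untreated, which were taken by these labels and not by any measured value. The study removed single proteins of the nuclear pore or of nuclear transport from DLD-1 cells, a human colorectal adenocarcinoma line. Each was fused to an auxin-inducible degron (AID). Through this tag, auxin and the plant F-box protein TIR1 send a protein to the proteasome within hours. In the NUP50 line both alleles of NUP50 were edited to carry NeonGreen, a fluorescent protein, and the degron, and TIR1 was made from the RCC1 locus. The untreated cells carried the same edits and received no auxin, and the treated cells received 1 mM auxin for 9 h. The same line had 3 further libraries after 3 h of auxin, which share the untreated libraries. Lines with the degron on NUP153 or on RANGAP1 (labelled GAP1-NeonGreen-AID) and the line labelled AID-NeonGreen-TPR had 3 libraries after 8 h of auxin and 3 untreated ones each, the latter from the library set labelled old for TPR. Each protein was represented by 1 edited line.

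The nuclear basket is a set of filaments on the nucleoplasmic face of the nuclear pore, built from TPR, NUP153 and NUP50. NUP50 is the mobile member: it shuttles between pore and nucleoplasm, binds NUP153, and helps importin alpha to release its cargo and return to the cytoplasm. Basket proteins have also been tied to mRNA export through the TREX-2 complex and to transcription of genes near the pore.

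Each of the 9 libraries of the NUP50 line held between 18943661 and 27425666 counts in genes, and the 6 libraries compared held 23181454 to 27425666. Levels are given as CPM, the counts of a gene scaled to equal library totals. Chi-square values per degree of freedom between replicates were 7.44 to 38.2, so no 2 libraries agreed within sampling noise. The label of a colorectal epithelial line was checked against 10 markers. EPCAM, KRT8, KRT18, KRT19 and CDH1 were abundant. VIL1 was low, at means of 1.88 CPM untreated and 1.64 CPM after 9 h. CEACAM5 and LGALS4 were below 1 CPM in every library compared. The markers summed to 7509 to 7940 CPM in untreated and 7838 to 7871 CPM in treated libraries. All 6 fibroblast markers, 4 of 5 leukocyte markers and 3 of 4 endothelial markers were below 1 CPM, while the endothelial gene VWF had 97 to 143 counts (log2 fold change -0.18, adjusted p = 0.702, edgeR). Mitochondrial transcripts took 1.03%, 0.538% and 0.316% of counts in untreated replicates 1 to 3 and 1.44%, 0.511% and 0.785% in the 9 h replicates. The only cells with auxin and no degron, parental DLD-1, were sampled at 2 h, so effects of auxin alone at 9 h and effects of losing NUP50 cannot be told apart.

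The degron acts on the protein, so the NUP50 RNA does not check its loss. NUP50 RNA was 265.9, 295.3 and 289.2 normalized CPM in untreated replicates 1 to 3 and 308.9, 301.9 and 303.1 after 9 h (normalized CPM are CPM scaled by TMM factors over the 9 libraries). Its groups did not overlap, but the log2 fold change was only 0.10 ± 0.06 (SE, n = 3 against 3) and did not pass the test (adjusted p = 0.449, edgeR quasi-likelihood test with Benjamini-Hochberg adjustment over 17812 genes). The RNAs of the basket partners NUP153 (-0.04, adjusted p = 0.855), TPR (0.01, adjusted p = 1) and ZC3HC1, a basket-bound protein (-0.08, adjusted p = 0.665), did not pass it either (edgeR). Of these 4 genes, 0 were called by edgeR, 0 had an unadjusted p under 0.05 and 0 were called by DESeq2.

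After 9 h, 65 of 17812 tested genes were called, 0.365% of those tested. A call required an adjusted p under 0.05 in edgeR's quasi-likelihood test and a level no less than 1.3 times, or no more than 0.7 times, the untreated one, which is a log2 fold change of 0.38 or more or of -0.51 or less. Of these genes 39 rose (0.219%) and 26 fell (0.146%), and with scaling by library sizes alone 69 rose and 24 fell. The largest rise was FAM53A at 2.13 on the log2 scale and the largest fall was SPIN4 at -0.99, with medians of 0.56 among the genes that rose and -0.67 among those that fell, and standard errors from 0.06 to 0.30. At an adjusted p under 0.05 with no limit on the fold there were 94 genes, 51 higher and 43 lower, and 2940 genes had an unadjusted p under 0.05. With the same limits DESeq2 called 170 genes. These totals over all tested genes are the background for the counts given for each gene list. The values of the groups did not overlap for any of the 65 called genes, against 3802 of all tested genes (21.3%). These are bulk libraries, so fewer cells making an RNA and less of it per cell cannot be told apart. The count depended on single libraries. Without untreated replicate 1 it was 444 genes, and without untreated replicate 2, untreated replicate 3, 9 h replicate 1 or 9 h replicate 2 it was 11, 27, 32 and 1. All 65 genes kept their sign when any 1 library was left out. SPIN4 was called each time, 10 genes were called 5 times of 6, 9 genes 4 times and 45 genes 3 times or fewer.

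**Figure D1:**
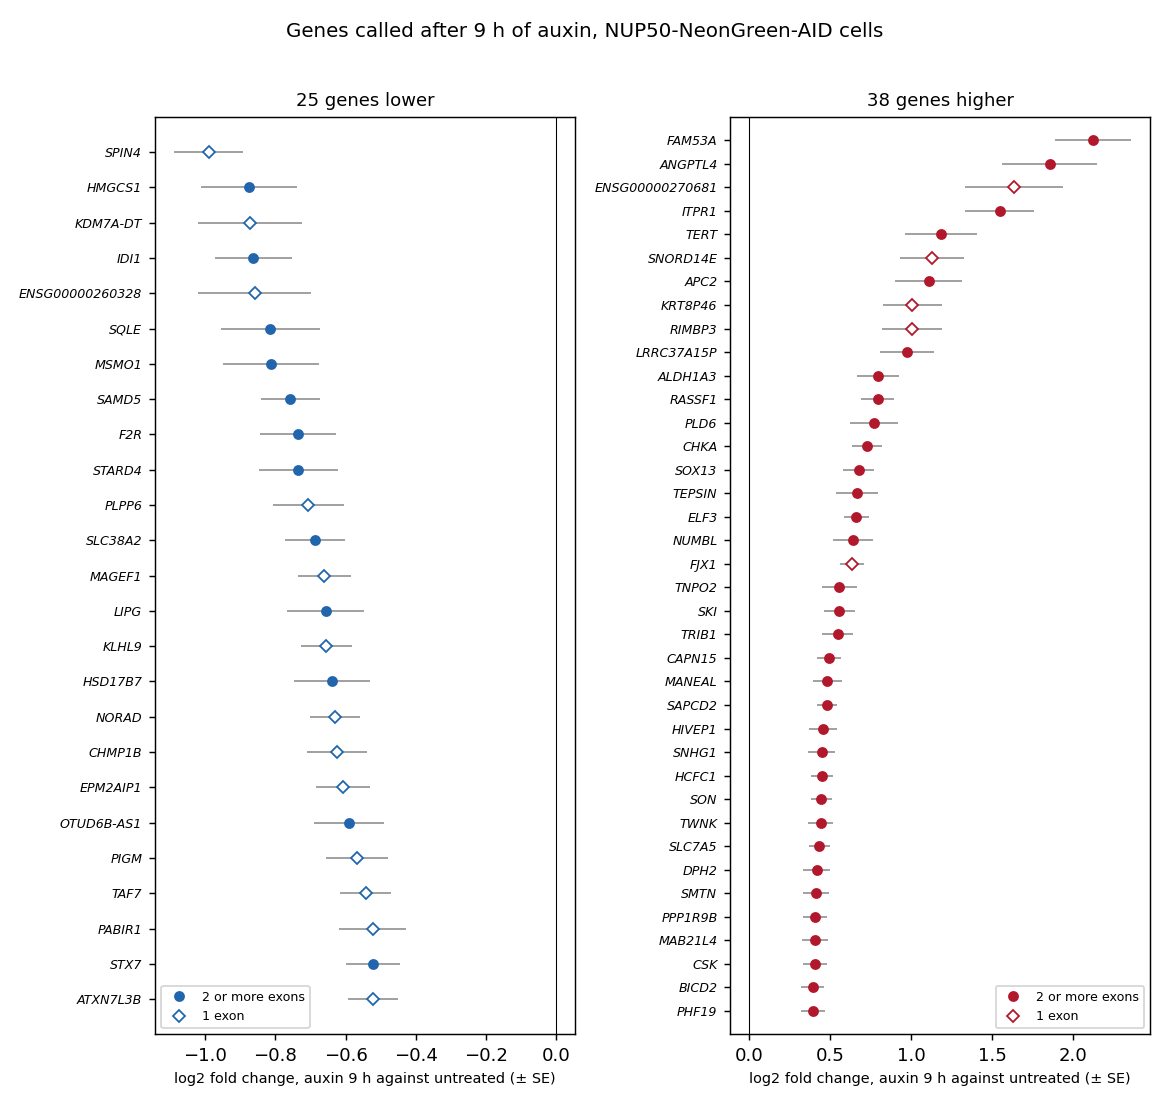
Log2 fold change after 9 h of auxin against untreated cells (x axis) for 63 of the 65 called genes (y axis), 25 lower on the left and 38 higher on the right; points are edgeR estimates with bars of 1 SE from 3 against 3 libraries, filled for genes with several exons and open for genes with 1 exon. Of the 25 genes drawn that fell, 13 are open symbols, and the largest fold changes are the rises of FAM53A (2.13), ANGPTL4 (1.86) and ENSG00000270681 (1.64), which had means under 50 counts.

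Genes of cholesterol synthesis and supply fell. HMGCS1, IDI1, SQLE, MSMO1, HSD17B7 and STARD4 were lower after 9 h, at folds between 0.545 and 0.642 of the untreated level. HMGCS1 makes the HMG-CoA that feeds the mevalonate pathway, IDI1 isomerises isopentenyl diphosphate, and SQLE, MSMO1 and HSD17B7 act in turn from squalene to the sterols, while STARD4 carries cholesterol between membranes. In mammalian cells this pathway is switched on together by SREBP2, a membrane-bound transcription factor that is cut and enters the nucleus when sterols run low. Of the 23 tested genes on the list of cholesterol synthesis and SREBP2 targets, 6 fell, 0 rose and all 23 had a log2 fold change below 0. The list's median was -0.42, against 0 over all tested genes, of which 47.2% were below 0, and 18 of its members had an unadjusted p under 0.05 and 9 were called by DESeq2.

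SREBP2 acts with the factor NF-Y, which binds the letters CCAAT, so the stretch of 250 bases before the start was searched for CCAAT on either strand. RefSeq (GRCh38.p14) held an entry for 16 of the 23 genes, and 14 of the 16 (87.5%) had a match, while 4685 of the 11416 tested genes with an entry (41%) had one. The 5 called members with an entry each had a match at 1 start or more. HMGCS1 and IDI1 have several starts, with a match before 1 of 2 and 2 of 3 of them. The 3 called members with a single start are shown because they fell together, on the gene's strand and from 5′ to 3′, with each CCAAT or its reverse complement ATTGG in capitals; MSMO1 is chr4:165327419-165327668 (plus strand), STARD4 is chr5:111512536-111512785 (minus strand) and HSD17B7 is chr1:162790452-162790701 (plus strand).
MSMO1: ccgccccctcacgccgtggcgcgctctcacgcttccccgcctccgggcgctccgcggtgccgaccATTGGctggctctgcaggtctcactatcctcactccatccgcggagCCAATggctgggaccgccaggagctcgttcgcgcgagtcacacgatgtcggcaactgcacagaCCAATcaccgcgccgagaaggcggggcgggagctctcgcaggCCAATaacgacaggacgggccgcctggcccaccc
STARD4: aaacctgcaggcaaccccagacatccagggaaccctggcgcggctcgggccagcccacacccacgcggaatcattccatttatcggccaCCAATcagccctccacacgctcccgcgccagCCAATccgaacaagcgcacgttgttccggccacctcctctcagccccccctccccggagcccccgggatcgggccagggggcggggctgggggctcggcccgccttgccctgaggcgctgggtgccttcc
HSD17B7: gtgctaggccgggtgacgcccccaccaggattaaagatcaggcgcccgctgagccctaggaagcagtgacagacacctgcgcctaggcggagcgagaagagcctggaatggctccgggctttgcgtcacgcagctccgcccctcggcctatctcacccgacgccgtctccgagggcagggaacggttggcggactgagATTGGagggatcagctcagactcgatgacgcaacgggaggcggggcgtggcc
MSMO1 has 4 matches, which begin 185, 139, 76 and 34 bases before the start. STARD4 has 2, at 161 and 130 bases, and HSD17B7 has 1, at 52 bases. A match is a description of these letters and was not tested as a binding site.

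HMGCS1 was at 239.9, 392.9 and 348.5 normalized CPM in untreated replicates 1 to 3, at 222.3, 317.7 and 348.1 after 3 h and at 173.4, 186.7 and 175.6 after 9 h. All 9 h libraries lay below all untreated ones, and the untreated libraries were spread more widely than the treated ones. Its log2 fold change at 9 h was -0.88 ± 0.14 (SE, n = 3 against 3, adjusted p = 0.0172, edgeR). IDI1 was at 142.1, 206.4 and 170.1 CPM in untreated cells, at 125.2, 139.8 and 158.5 after 3 h and at 93.99, 98.49 and 93.04 after 9 h. Its 9 h values were close together and under every other library of the line (-0.86 ± 0.11, adjusted p = 0.00599, edgeR). SQLE, with 158.2, 264.0 and 218.9 CPM untreated and 112.4, 129.2 and 123.5 after 9 h, changed by -0.81 ± 0.14 (adjusted p = 0.0297, edgeR). MSMO1 changed by the same size, from 165.9, 274.0 and 208.4 to 118.8, 128.5 and 122.5 CPM (-0.81 ± 0.14, adjusted p = 0.0255, edgeR). STARD4 went from 66.8, 90.8 and 93.6 to 48.2, 51.6 and 51.5 CPM (-0.73 ± 0.11, adjusted p = 0.0143, edgeR). HSD17B7, the smallest of the 6 changes, was 40.2, 51.5 and 52.4 CPM untreated and 28.2, 31.5 and 33.0 after 9 h (-0.64 ± 0.11, adjusted p = 0.0255, edgeR). Untreated replicate 1 was the lowest of its group for all 6 genes. None of the 6 had a treated library within the untreated range, which held for all 65 called genes and for 21.3% of all tested genes.

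**Figure D2:**
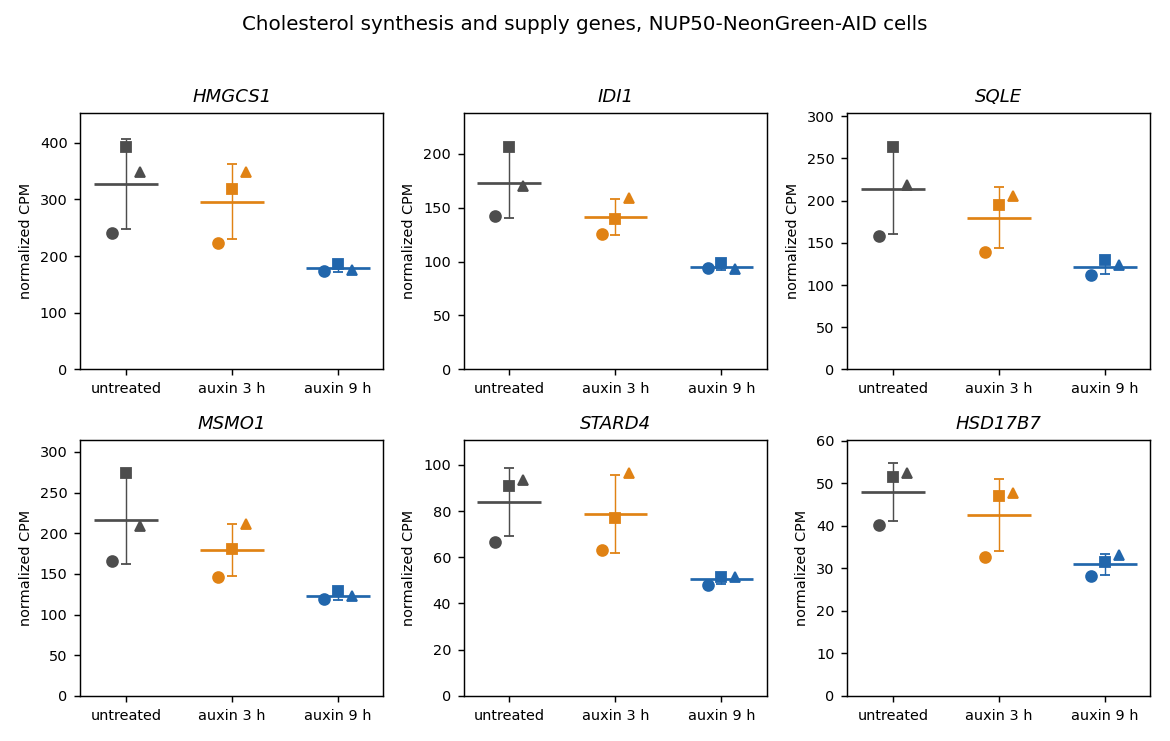
Normalized CPM (y axis, from 0) of the 6 called cholesterol genes in each NUP50-NeonGreen-AID library, untreated, auxin 3 h and auxin 9 h (x axis); circles, squares and triangles are replicates 1, 2 and 3, and lines are means with bars of 1 SD (n = 3). The 9 h values lie close together and below every untreated value, and untreated replicate 1 (circle) is the lowest untreated value in each panel, as for HMGCS1 at 239.9 against 392.9 and 348.5 CPM.

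Other genes of the list did not pass the test. INSIG1, a sterol-induced retention protein of the same regulon, was 127.4, 299.8 and 218.8 CPM untreated and 77.4, 116.1 and 115.4 after 9 h (-1.07, adjusted p = 0.0695, edgeR), with every treated library under the untreated ones. FDFT1, the squalene synthase, was at -0.64 (adjusted p = 0.0687, edgeR). The number of members called ran from 0 without 9 h replicate 2 to 13 without untreated replicate 1, with medians from -0.55 to -0.33, and a correction for transcript GC content, added after the data were seen, left 4 of them called at a median of -0.45.

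The 6 genes were less changed at 3 h, where their log2 fold changes ran from -0.29 for IDI1 to -0.09 for STARD4 against the same untreated libraries. Set directly against the 3 h libraries, which needs no untreated library, HMGCS1 (-0.73 ± 0.13, adjusted p = 0.0476) and IDI1 (-0.57 ± 0.08, adjusted p = 0.0167) were called lower at 9 h (edgeR), 2 of the 23 members, and the list's median was -0.28. LIPG, the endothelial lipase, also fell at 9 h and is not on the list (-0.66, adjusted p = 0.0255, edgeR).

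A second set among the genes that fell had a single exon. Of the 26, 14 have 1 exon in their canonical transcript (53.8%, GENCODE 44), against 2104 of 17569 tested genes with a transcript (12%); among protein-coding genes it was 11 of 22 (50%) against 288 of 13137 (2.19%). This class was chosen after the values were seen, and 5 of the 39 genes that rose (12.8%) had 1 exon. The coding genes included SPIN4, PLPP6, MAGEF1, KLHL9, CHMP1B, EPM2AIP1, PIGM, TAF7, PABIR1 and ATXN7L3B, and the noncoding ones were NORAD, KDM7A-DT and ENSG00000260328. Genes with 1 exon were not low as a class: the 216 coding ones with a mean of 50 counts or more had a median of -0.01, and 113 of them were below 0.

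SPIN4, which codes for a spindlin-family chromatin reader (chrX:63347228-63351332), fell most. It was at 25.5, 23.0 and 26.6 normalized CPM untreated, at 17.3, 16.8 and 16.9 after 3 h and at 13.2, 13.0 and 11.6 after 9 h. The 3 groups of libraries did not overlap and lay in the order of time. The log2 fold change at 9 h was -0.99 ± 0.10 (adjusted p = 0.00357, edgeR). NORAD, a cytoplasmic noncoding RNA that binds Pumilio proteins, was 510.6, 564.1 and 606.7 CPM untreated and 357.5, 351.9 and 378.4 after 9 h (-0.63 ± 0.07, adjusted p = 0.00383, edgeR). KLHL9, an adaptor of a CUL3 ubiquitin ligase, was 75.0, 76.9 and 73.3 CPM untreated, 53.1, 51.5 and 49.6 after 3 h and 47.0, 45.2 and 51.0 after 9 h. Its 3 h and 9 h values overlapped, and both lay under the untreated ones (9 h log2 fold change -0.65 ± 0.07, adjusted p = 0.00357, edgeR). TAF7, a subunit of the general factor TFIID, went from 142.7, 170.9 and 156.8 to 106.5, 109.4 and 107.5 CPM (-0.54 ± 0.07, adjusted p = 0.00831, edgeR). The noncoding KDM7A-DT, which starts beside KDM7A, was at 6.53, 7.29 and 6.18 CPM untreated and 3.49, 4.16 and 3.28 after 9 h (-0.87 ± 0.15, adjusted p = 0.0255, edgeR). ENSG00000260328, a noncoding gene at chr17:17011914-17014990, fell by 0.86 on the log2 scale (SE 0.16, adjusted p = 0.0400, edgeR).

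Other genes that fell had several exons and no place in sterol metabolism. SAMD5, a SAM-domain protein, was 44.8, 52.4 and 46.2 CPM untreated and 28.6, 29.1 and 27.3 after 9 h (-0.76 ± 0.08, adjusted p = 0.00357, edgeR). F2R, the thrombin receptor PAR1, was 12.7, 12.7 and 12.3 CPM untreated and 7.50, 7.04 and 8.10 after 9 h (-0.74 ± 0.11, adjusted p = 0.0129, edgeR). SLC38A2, a carrier of neutral amino acids, was 304.5, 381.8 and 361.6 CPM untreated and 227.5, 201.9 and 222.6 after 9 h (-0.69 ± 0.09, adjusted p = 0.00599, edgeR). In each of these genes the untreated libraries were all above the treated ones, and the groups of all 65 called genes were likewise apart. SLC38A2 is named here after its values were seen, as are PLPP6 (-0.71), MAGEF1 (-0.66), STX7 (-0.52) and the antisense RNA OTUD6B-AS1 (-0.59).

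The genes that rose made a more mixed group. The largest rise among genes with a mean of 50 counts or more was that of ITPR1, the inositol trisphosphate receptor that lets calcium out of the endoplasmic reticulum. It was at 1.99, 1.89 and 1.66 normalized CPM untreated, at 5.21, 4.79 and 2.27 after 3 h and at 6.84, 5.35 and 3.97 after 9 h (9 h log2 fold change 1.55 ± 0.21, adjusted p = 0.00856, edgeR). TERT, the catalytic subunit of telomerase, was 1.38, 1.07 and 1.66 CPM untreated, 4.83, 4.49 and 3.24 after 3 h and 2.86, 3.78 and 2.80 after 9 h (1.18 ± 0.22, adjusted p = 0.0386, edgeR). Its level after 9 h lay between the untreated and, for all but 1 pair of libraries, the 3 h values, and in parental cells it was at -0.997 in the libraries labelled auxin. ALDH1A3, which oxidises retinal to retinoic acid, had the same shape, with 4.26, 3.99 and 4.30 CPM untreated, 13.1, 14.9 and 9.28 after 3 h and 7.17, 7.89 and 6.81 after 9 h (0.80 ± 0.13, adjusted p = 0.0229, edgeR). TERT and ALDH1A3 were the 2 called members of a list of 7 genes seen to rise in several degron lines of this series, a list that was drawn up from these libraries and so is no independent evidence of direction. Its median was 0.07, and the remaining 5 members, among them STMND1 (1.48, adjusted p = 0.0513) and PRDM1 (-0.50, adjusted p = 0.333), were not called (edgeR).

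RASSF1, a Ras-association tumour suppressor, rose from 18.2, 15.0 and 16.3 to 31.5, 28.5 and 26.0 CPM (0.79 ± 0.10, adjusted p = 0.00615, edgeR). APC2, a relative of the Wnt regulator APC, went from 1.87, 1.33 and 1.398 to 3.34, 3.82 and 2.80 CPM (1.11 ± 0.21, adjusted p = 0.0386, edgeR). PLD6, a mitochondrial surface phospholipase, went from 8.35, 5.71 and 6.00 to 11.6, 11.9 and 10.7 CPM (0.77 ± 0.15, adjusted p = 0.0434, edgeR). The treated libraries were above the untreated ones for all 3 genes, and the groups of all 65 called genes were likewise apart. SNORD14E, a small nucleolar RNA inside an intron of HSPA8 (chr11:123058077-123058161), was 2.72, 2.83 and 2.21 CPM untreated and 7.21, 4.92 and 4.78 after 9 h (1.13 ± 0.20, adjusted p = 0.0294, edgeR), and its reads can come from the unspliced host RNA. RIMBP3 (1.006, adjusted p = 0.0368, edgeR) has near-identical copies, and the pseudogenes KRT8P46 (1.009) and LRRC37A15P (0.97) overlap each other on chr4 and resemble expressed genes, so these values are uncertain. FAM53A was the largest of all, from 0.527, 0.558 and 0.515 to 2.23, 2.63 and 2.19 CPM, and rests on a mean under 50 counts (2.13 ± 0.24, adjusted p = 0.00357, edgeR).

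FJX1, a relative of a Drosophila planar polarity protein and 1 of 6 RNAs that the study names in its account of TPR, was 35.0, 32.6 and 36.5 normalized CPM untreated, 38.4, 50.6 and 40.8 after 3 h and 54.9, 52.7 and 54.2 after 9 h. It rose by 0.63 ± 0.07 (adjusted p = 0.00404, edgeR). By quantitative PCR after a shorter exposure, the study detected no FJX1 change upon loss of NUP50 or NUP153. FJX1 was the only called member of the 6 at 9 h, and DESeq2 called 3. EGR1, an immediate early transcription factor, was 19.3, 20.3 and 26.4 CPM untreated and 28.5, 34.5 and 34.0 after 9 h (0.55 ± 0.12, adjusted p = 0.0695, edgeR). FOS (0.61, adjusted p = 0.113), the intestinal stem cell factor ASCL2 (0.33, adjusted p = 0.275), the homeobox gene HOXA13 (0.10, adjusted p = 0.671) and the stress cytokine GDF15 (-0.29, adjusted p = 0.395) were not called (edgeR). In the TPR line after 8 h the log2 fold changes were 2.43 for EGR1, 2.85 for FOS, -1.58 for ASCL2, -1.30 for HOXA13 and 2.17 for GDF15.

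Further genes that rose are named after their values were seen. ELF3, an epithelial ETS factor, went from 42.2, 44.96 and 44.8 to 63.3, 72.8 and 73.1 CPM (0.66 ± 0.08, adjusted p = 0.00449, edgeR). SLC7A5, the large neutral amino acid carrier, went from 561.4, 500.8 and 567.3 to 737.2, 756.8 and 709.4 CPM (0.43 ± 0.07, adjusted p = 0.0137, edgeR). SON, a scaffold protein of nuclear speckles, was 205.5, 206.1 and 183.7 CPM untreated and 275.5, 267.5 and 268.4 after 9 h (0.44 ± 0.06, adjusted p = 0.0110, edgeR). CHKA, a choline kinase, SKI, a repressor of SMAD signalling, and HCFC1, a chromatin cofactor, rose by 0.73, 0.56 and 0.45.

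Among other transport genes, 1 was called. Of 25 tested importins and exportins it was TNPO2, an import receptor of the transportin class, at 50.9, 38.1 and 41.0 CPM untreated and 70.7, 62.9 and 57.7 after 9 h (0.56 ± 0.11, adjusted p = 0.0478, edgeR). TNPO2 was called in 2 of the 6 fits that left out 1 library and not with the GC correction (adjusted p = 0.0964), which called KPNA4 (0.56, adjusted p = 0.0235) and KPNB1 (0.38, adjusted p = 0.0231) in its place (edgeR). KPNB1, importin beta, passed the test but not the fold limit, going from 869.7, 832.9 and 829.7 to 1091, 1093 and 1043 CPM (0.35 ± 0.06, adjusted p = 0.0226, edgeR). The list had 16 members above 0, 9 below 0 and a median of 0.05. In the Ran cycle, RCC1, the nucleotide exchange factor of Ran, was in the same position as KPNB1, with 228.9, 212.2 and 219.4 CPM untreated and 288.6, 298.1 and 272.7 after 9 h (0.38 ± 0.06, adjusted p = 0.0226, edgeR). RCC1 is also the locus that carries TIR1 in this line. Of 7 Ran cycle genes 0 were called by edgeR, 3 had an unadjusted p under 0.05 and 0 were called by DESeq2, with RANGRF, a Ran release factor, at 0.52 (adjusted p = 0.222). Of 28 other nucleoporins 0 were called by edgeR, 5 had an unadjusted p under 0.05 and 0 were called by DESeq2, at a median of 0.01 with NUP214 highest at 0.38 (adjusted p = 0.0588). Of 13 TREX-2 and mRNA export genes the numbers were 0, 3 and 0, at a median of -0.05, with CETN3, a centrin of TREX-2, at -0.29 (adjusted p = 0.111).

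The fold changes at 9 h moved with base composition. The median GC content of the canonical transcript was 40.2% for the genes that fell, 59.4% for those that rose and 49% for all tested genes. Over 10885 protein-coding genes with a mean of 50 counts or more, Pearson's r between log2 fold change and GC content was 0.483 at 9 h, and it was 0.271 at 3 h, 0.121 for NUP153, -0.03 for RANGAP1 and -0.32 for TPR at 8 h. These are descriptions across genes, which share their libraries and are not independent. Genes with several exons and at most 40% GC had a median of -0.13 at 9 h (1954 genes), and those over 60% GC had 0.14 (1523 genes). The 15 genes with 1 exon and at most 40% GC had a median of -0.32, but 5 of them were among the called genes that fell. Of these 15 genes 14 were below 0 (93.3%), as were 1667 of the 1954 genes with several exons (85.3%). In single libraries, the slope of log2 level on GC content, relative to the mean of the 9 libraries, was -0.03, -0.10 and -0.02 per 10 points of GC in untreated replicates 1 to 3 and 0.03, 0.07 and 0.06 in the 9 h replicates. With a per-library correction for GC content, chosen after the data were seen, 42 genes passed both criteria (23 rose and 19 fell), and they held 34 of the 65, 17 that rose and 17 that fell. The part of base composition in the remaining differences was not tested.

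**Figure D3:**
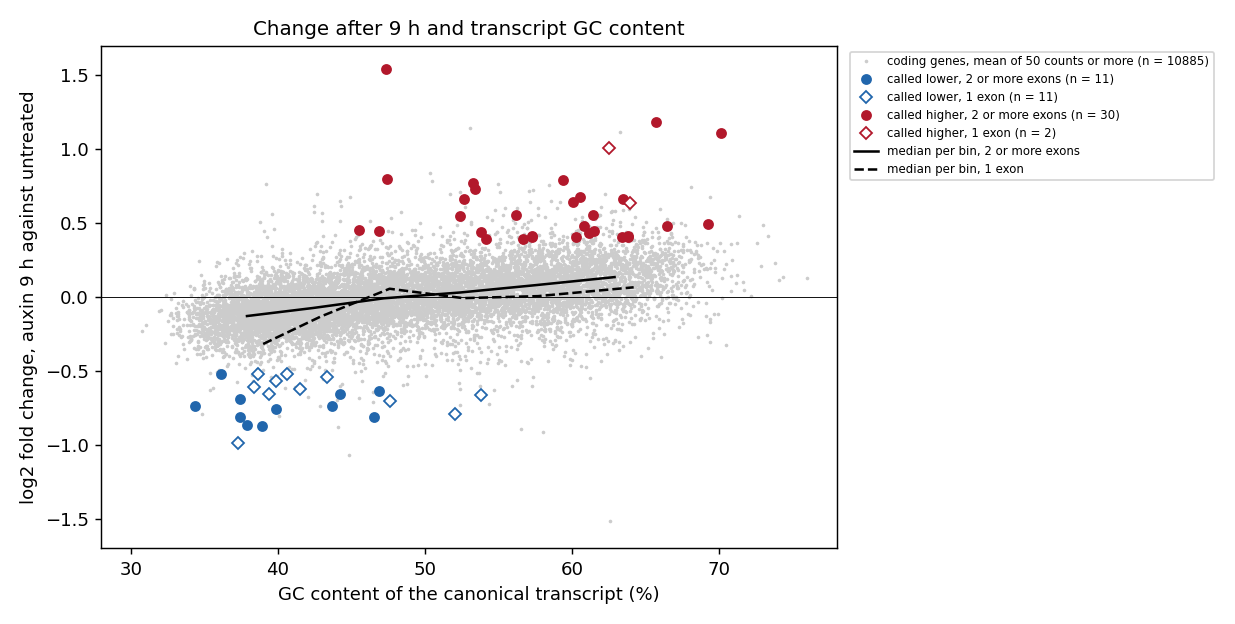
Log2 fold change after 9 h against untreated cells (y axis) and GC content of the canonical transcript in percent (x axis) for 10885 protein-coding genes with a mean of 50 counts or more; large symbols are called genes, filled with several exons and open with 1 exon, and the solid and dashed lines join bin medians for several exons and for 1 exon. The solid line rises from -0.13 at up to 40% GC to 0.14 above 60%, and called genes lie mostly at low GC where they fell and at high GC where they rose.

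Of the 29 gene lists examined, 25 had no called member; they held 257 tested genes, of which 74 had an unadjusted p under 0.05 (edgeR) and 11 were called by DESeq2. Over all 17812 tested genes 65 were called (0.365%), 2940 had an unadjusted p under 0.05 (edgeR) and 170 were called by DESeq2. At 0.365% a list of this size would often hold no called member, so its absence is no result about a list. The 16 genes of the integrated stress response, through which cells answer amino acid shortage and unfolded protein with ATF4, had a median of -0.35, with 14 members below 0, 0 called by edgeR, 10 at an unadjusted p under 0.05 and 3 called by DESeq2. MTHFD2, a mitochondrial folate enzyme, went from 258.2, 259.7 and 280.6 to 204.1, 174.1 and 193.6 CPM (-0.48, adjusted p = 0.0129), and PSAT1, a serine synthesis enzyme, was at -0.43 (adjusted p = 0.0110, both edgeR). Both passed the test and missed the fold limit of 0.7. DDIT4, an inhibitor of mTORC1, had the largest value of the list at -0.91 (adjusted p = 0.0813, edgeR), and its untreated and treated libraries overlapped at 11.07 and 11.14 CPM.

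The 14 immediate early genes had a median of 0.35, with 12 above 0, 0 called by edgeR, 9 at an unadjusted p under 0.05 and 4 called by DESeq2. The 19 mitotic genes had a median of 0.11, with 0 called by edgeR, 7 at an unadjusted p under 0.05 and 1 called by DESeq2, and the proliferation marker MKI67 was at 0.43 (adjusted p = 0.0568, edgeR). The 13 S phase genes had a median of -0.10, with counts of 0, 3 and 0, and CDC45, a part of the replicative helicase, was at -0.19 (adjusted p = 0.202, edgeR). The 13 p53 targets had a median of -0.06 and counts of 0, 3 and 1, and CDKN1A, the p21 cell cycle inhibitor, was at -0.60 (adjusted p = 0.0661, edgeR). Among 11 NF-kappaB targets (median 0.24, counts 0, 4 and 1) TNFAIP3 was at 0.45 (adjusted p = 0.233, edgeR). Hypoxia genes (median -0.21, counts 0, 5 and 0) were led by ANKRD37 at -0.43 (adjusted p = 0.355, edgeR), and NRF2 targets (median -0.10, counts 0, 2 and 1) by the cystine carrier SLC7A11 at -0.63 (adjusted p = 0.0857, edgeR). The lists of interferon-stimulated genes (IFIT1 at -0.56, adjusted p = 0.247), YAP/TEAD targets (ANKRD1 at -0.67, adjusted p = 0.110), endoplasmic reticulum chaperones (HERPUD1 at -0.40, adjusted p = 0.142) and heat shock genes (HSP90AA1 at -0.31, adjusted p = 0.228) had medians between -0.14 and -0.05 (edgeR). SR proteins and CLK kinases (SRSF6 at -0.22, adjusted p = 0.182), SMAD feedback genes (SMAD7 at 0.35, adjusted p = 0.0709), Wnt targets (ASCL2), nuclear noncoding RNAs (KCNQ1OT1 at 0.45, adjusted p = 0.167) and colorectal epithelial markers (CDX2 at 0.27, adjusted p = 0.373) had medians between -0.09 and 0.05 (edgeR).

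A direct comparison of 9 h with 3 h asked what differed between a long and a short exposure. It called 46 genes (0.258% of 17812), 39 lower and 7 higher at 9 h, with 1486 at an unadjusted p under 0.05 (edgeR). The genes that were lower at 9 h included targets of the aryl hydrocarbon receptor (AHR), a ligand-activated factor that induces drug-metabolising enzymes and its own repressors. CYP1A1, the prototype AHR-induced oxidase, was 2.64, 3.90 and 17.1 normalized CPM untreated, 411, 473 and 380 after 3 h and 22.4, 13.7 and 17.1 after 9 h. All 3 h libraries were far above the others, and the 9 h values overlapped the highest untreated one. CYP1A1 was lower at 9 h than at 3 h by a log2 difference of -4.57 (adjusted p = 1.61e-07, edgeR) and was at 1.14 ± 0.48 against untreated cells (adjusted p = 0.256, edgeR), a value that became 2.44 without untreated replicate 3. CYP1B1, a related oxidase, was 19.6, 22.6 and 36.0 CPM untreated, 116, 80.9 and 97.6 after 3 h and 37.7, 27.5 and 29.3 after 9 h (9 h against 3 h -1.64, adjusted p = 0.000639, edgeR). TIPARP, a mono-ADP-ribosyltransferase that represses AHR, was 67.4, 78.7 and 91.8 CPM untreated, 181, 167 and 210 after 3 h and 74.0, 68.2 and 71.1 after 9 h (-1.39, adjusted p = 4.34e-05, edgeR). AHRR, the AHR repressor, was 7.46, 6.48 and 10.9 CPM untreated, 19.8, 22.6 and 20.3 after 3 h and 9.88, 9.76 and 10.6 after 9 h (-1.05, adjusted p = 0.00104, edgeR). For these 3 genes the 9 h libraries overlapped the untreated ones and lay below every 3 h library. In all, 4 of the 7 AHR targets tested were lower at 9 h than at 3 h, and at 9 h against untreated cells 0 of 7 were called by edgeR, 2 had an unadjusted p under 0.05 and 0 were called by DESeq2.

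Between the parental DLD-1 groups labelled auxin 2 h and untreated 10 genes were called, among them CYP1A1, CYP1B1 and TIPARP, and all 10 were lower in the libraries labelled auxin, while these 3 genes were higher after 3 h of auxin in the NUP50 line. Which parental group received auxin rests on the labels alone, and an exchange of the labels would turn the sign of every parental value given here, that of TERT included. These 10 genes were removed from the 9 h calls, which took out MEGF6 alone, a gene at 12.2, 11.4 and 15.3 CPM untreated and 28.2, 26.4 and 29.8 after 9 h (1.12 in this line and -1.42 in the parental libraries labelled auxin).

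**Figure D4:**
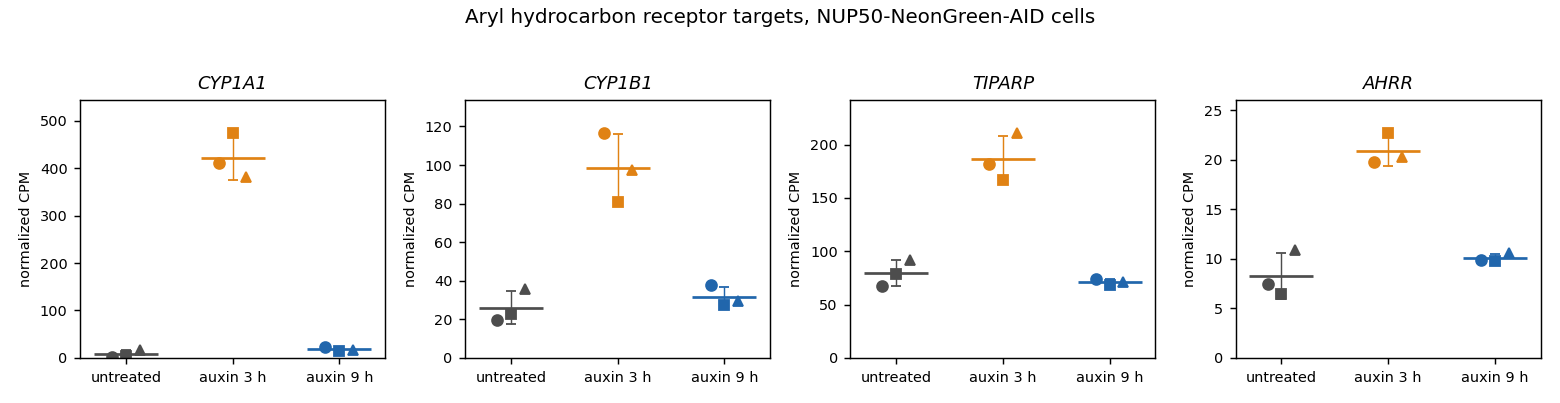
Normalized CPM (y axis, from 0) of 4 AHR target genes in each NUP50-NeonGreen-AID library, untreated, auxin 3 h and auxin 9 h (x axis); circles, squares and triangles are replicates 1, 2 and 3, and lines are means with bars of 1 SD (n = 3). Each gene is highest in the 3 h libraries, as for CYP1A1 at 380 to 473 CPM, and the 9 h values lie within or near the untreated range.

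Other genes lower at 9 h than at 3 h were CEMIP, a hyaluronan-degrading protein (-1.74, adjusted p = 0.000724), and the antiviral enzyme OAS2 (-1.66, adjusted p = 0.00441, both edgeR). OAS2 was 1.87, 1.67 and 3.53 CPM untreated, 4.51, 6.26 and 6.43 after 3 h and 2.12, 1.66 and 1.66 after 9 h, so only the 3 h libraries stood apart. Among the 7 genes higher at 9 h, SOX13, an HMG-box transcription factor, was 29.4, 29.9 and 25.6 CPM untreated, 23.5, 27.6 and 22.2 after 3 h and 40.5, 49.6 and 45.8 after 9 h. SOX13 was above every other library at 9 h, both against 3 h (0.89, adjusted p = 0.00619) and against untreated cells (0.68, adjusted p = 0.0105, edgeR). EGR1 rose between 3 h and 9 h by 0.72 (adjusted p = 0.0238) and CAMKK1, a calcium-dependent kinase, by 0.69 (adjusted p = 0.0432, edgeR). Against the shared untreated libraries, the 26 genes that fell at 9 h had 3 h log2 fold changes with a median of -0.30, and the 39 that rose had 0.32. The same untreated libraries served to choose these genes, so the 3 h signs are not independent of the 9 h ones.

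The last comparisons asked whether the response at 9 h differed from that of cells with another protein degraded for 8 h. The times differ, and each response was measured against the line's own untreated libraries. The study also reports that NUP50 disperses into the nucleoplasm once NUP153 is lost, so the place of NUP50 was affected in the NUP153 line too. By the rule used at 9 h, 235 genes were called after NUP153 loss (1.32%), 2645 after RANGAP1 loss (14.8%) and 639 after TPR loss (3.59%). Of the 65 genes called at 9 h for NUP50, 10 were among the NUP153 calls (15.4% of the 65 and 4.26% of the 235), 8 of them with the same sign. With RANGAP1, the GTPase-activating protein of Ran, 36 were shared (55.4% of the 65 and 1.36% of the 2645), 34 with the same sign. With TPR 8 were shared (12.3% of the 65 and 1.25% of the 639), 6 with the same sign. A test of the difference itself, the interaction of line and auxin in edgeR, was passed by 50 genes against NUP153 (0.281%), by 1726 against RANGAP1 (9.69%) and by 1736 against TPR (9.75%). It was passed by 17, 19 and 19 of the 65 (26.2%, 29.2% and 29.2%), and since the 65 were chosen by the NUP50 side of each difference, these shares support no claim about them.

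**Figure D5:**
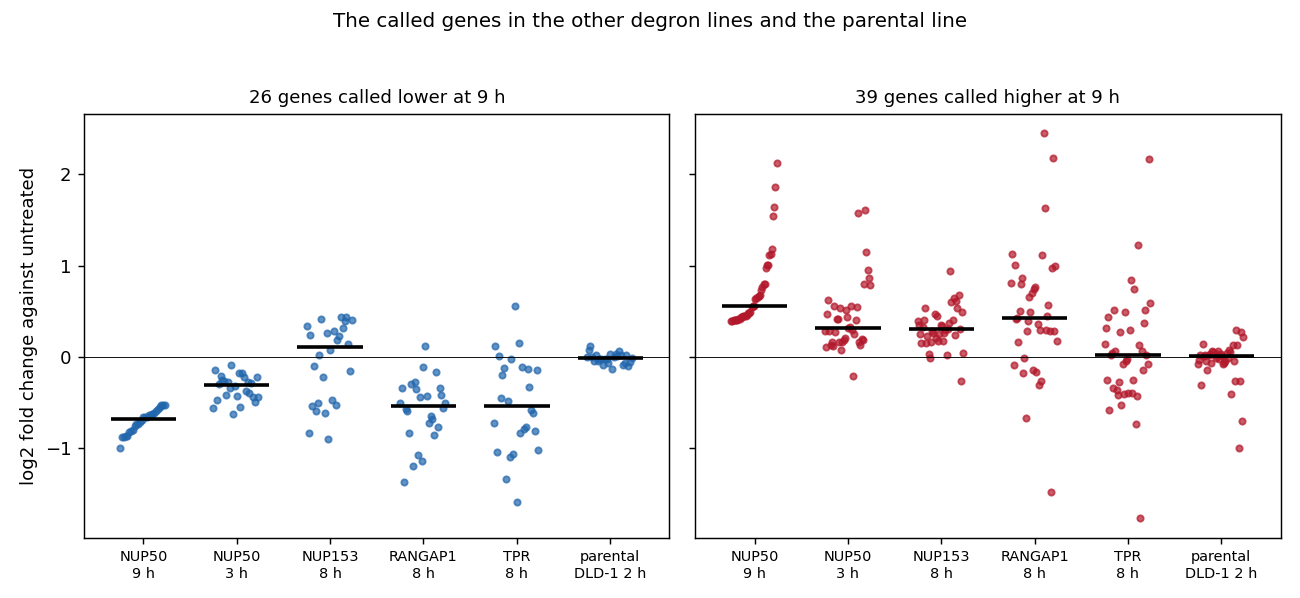
Log2 fold change of auxin-treated against untreated cells (y axis) for the 26 genes called lower (left) and the 39 called higher (right) at 9 h, in each line and time (x axis); points are genes and lines are medians, and the first column holds the values that chose the genes. The 3 h column uses the same untreated libraries as the first, so its signs are not independent of that choice. For the genes that fell the medians are -0.30 at 3 h, 0.11 in NUP153, -0.53 in RANGAP1 and -0.53 in TPR cells, and for the genes that rose they are 0.32, 0.30, 0.43 and 0.02.

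The genes that fell had values on both sides of 0 in the NUP153 line, in libraries that the 9 h calls did not use. They are given here by exon number, a split chosen after the values were seen and with no test between its parts. The 14 with 1 exon had NUP153 log2 fold changes from -0.09 to 0.44 with a median of 0.25, and 13 were above 0. The 12 with more exons had a median of -0.51, and 10 were below 0. Of these 12, 6 were the called cholesterol genes, from -0.83 for HMGCS1 to -0.50 for MSMO1, and the other 6 were spread from -0.90 for SLC38A2 to 0.41 for SAMD5. Among all 216 coding 1-exon genes with 50 counts or more, 132 were above 0 in the NUP153 line. SPIN4, at -0.99 after NUP50 loss, was at 0.34 after NUP153 loss, a difference of -1.31 ± 0.16 (adjusted p = 0.00133, edgeR). TAF7 (0.44, adjusted p = 0.0165) and ATXN7L3B (0.41, adjusted p = 0.0285) were called higher in the NUP153 line (edgeR), and both fell in the NUP50 line. KDM7A-DT (NUP153 0.24, difference -1.10, adjusted p = 0.0276) also differed between the lines (edgeR). In all, 13 of the 14 differed between the NUP50 and NUP153 lines at an adjusted p under 0.05 (edgeR), against 19 of the 216. The 14 were chosen by the NUP50 side of this difference. In the TPR line all 14 were below 0, from -1.58 for MAGEF1 to -0.13 for EPM2AIP1 with a median of -0.79, 4 were called lower and 0 differed from NUP50. In the RANGAP1 line all 14 were below 0 as well, 7 were called lower and 1 differed from NUP50. Of the same 216 genes 163 were below 0 in the TPR line, with a median of -0.72 and 56 called lower, so low values there are common to the class. In the RANGAP1 line 134 of the 216 were below 0 and 47 were called lower.

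The 6 cholesterol genes that fell had values below 0 in the NUP153 and RANGAP1 lines too, but in the NUP153 line HMGCS1 alone passed the test, and in the RANGAP1 line MSMO1 did not pass it (-0.30, adjusted p = 0.401, edgeR). In the NUP153 line the adjusted p of the other 5 ran from 0.0768 for STARD4 to 0.3 for MSMO1 (edgeR). The list's median was -0.50 in NUP153, -0.31 in RANGAP1 and -0.09 in TPR cells, with 3, 8 and 0 of 23 members called lower. Over all 17812 tested genes 72, 1179 and 420 were called lower in these lines, so the 3 counts have unlike backgrounds. HMGCS1 was at -0.83 (adjusted p = 0.0149) after NUP153 loss, -0.34 (adjusted p = 0.0069) after RANGAP1 loss and 0.12 (adjusted p = 0.850) after TPR loss (edgeR). IDI1 was at -0.53 (adjusted p = 0.0876), -0.57 (adjusted p = 0.00334) and 0.01 (adjusted p = 1) in the same order (edgeR). The differences between NUP50 and TPR were -0.998 ± 0.35 for HMGCS1 (adjusted p = 0.0825) and -0.87 ± 0.43 for IDI1 (adjusted p = 0.221), so neither was shown to differ (edgeR). SLC38A2 was lower in the NUP153 (-0.90, adjusted p = 0.0102) and RANGAP1 (-1.14, adjusted p = 0.000172) lines and at 0.56 (adjusted p = 0.0815) in the TPR line, and its NUP50 response was below that of TPR by 1.24 ± 0.20 (adjusted p = 0.00411, edgeR).

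Genes outside the 65 gave some of the largest differences between lines. CGAS, the cytosolic DNA sensor, was at 10.1, 9.61 and 9.23 CPM untreated and 10.6, 9.72 and 8.95 after 9 h in the NUP50 line and was at 3.15 (adjusted p = 0.0539) in the NUP153 line, a difference of -3.09 (adjusted p = 0.0298, edgeR). Under 20 alternative settings the CGAS difference ran from -3.89 to -2.60, and it did not pass in 8 of them. LIF, a cytokine, was at 0.31 in the NUP50 and -0.97 in the NUP153 line, a difference of 1.29, and PARD6B, a polarity protein, was at 0.13 and -0.84, a difference of 0.98 (adjusted p = 0.00535 for both, edgeR). FAM53A, which is among the 65 and has few counts, was at 0.05 in the NUP153 line, a difference of 2.10 (adjusted p = 0.00535, edgeR). It also differed from RANGAP1 by 1.97 (adjusted p = 0.0017) and from TPR by 1.53 (adjusted p = 0.028, both edgeR). TSPYL4 was at -0.40 in the NUP50 and 0.90 in the NUP153 line (difference -1.28, adjusted p = 0.0107, edgeR). Against RANGAP1, TXNIP, a glucose-responsive inhibitor of thioredoxin, differed by -4.02 (adjusted p = 2.03e-06), at -0.44 in the NUP50 and 3.60 in the RANGAP1 line, and CYP1A1 by -5.12 (adjusted p = 7.66e-05, edgeR). DDIT4 differed from RANGAP1 by -2.64 (adjusted p = 3.56e-05), and the small RNA genes SNORD14E (2.62, adjusted p = 3.56e-05), SNORD99 (2.75) and ENSG00000260035 (2.72, both adjusted p = 1.91e-05) were higher in the NUP50 response (edgeR). RASSF1 rose in both lines and by more in the RANGAP1 line, at 0.79 and 2.45 (difference -1.64, adjusted p = 4.04e-06, edgeR).

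Against TPR, RIMBP3 differed by 2.77 (adjusted p = 0.00213), at 1.006 after NUP50 loss and -1.77 after TPR loss (edgeR). MOAP1, a BAX-binding protein, was at 0.13 and -2 (difference 2.13, adjusted p = 0.00684), and PGGHG, a collagen glucosidase, was at 0.35 and -1.71 (difference 2.06, adjusted p = 0.00457, edgeR). The YAP/TEAD targets ANKRD1 (difference -3.35, adjusted p = 0.00972) and CCN2 (difference -2.76, adjusted p = 0.0132) were at -0.67 and -0.19 in the NUP50 line and rose in the TPR line by 2.67 and 2.57 (edgeR). CYP1A1 differed from TPR by -4.61 (adjusted p = 0.0144, edgeR). FJX1 was at 0.63 in the NUP50 and -0.40 in the TPR line, a difference of 1.03 ± 0.28 (adjusted p = 0.0358, edgeR). The fold changes of the lines also moved with GC content in opposite directions (r = 0.483 and -0.32), and with the GC correction 703 genes differed from TPR. Of the 1736 genes 873 were higher in the NUP50 response and 863 lower, and with scaling by library sizes alone the numbers were 1626 and 287. Without TPR 8 h replicate old 2 the number was 3893, and without 9 h replicate 2 it was 500.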

How the data were processed

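RNA was sequenced after ribosomal depletion with a stranded total RNA kit (TruSeq, Ribo-Zero Gold) as paired reads. The deposited values are whole-number counts per Ensembl gene, which the authors made with STAR and featureCounts on GRCh38 (STAR 2.6.1c and featureCounts 1.5.2 per the labels), and the strand setting of the counting is not given in the sources used here. Groups and replicate numbers came from the labels, and the study's methods call the replicates biological and independent. Of 58051 gene IDs 56948 matched GENCODE 44, which gave names, exons and GC content. Genes with CPM above 1 in over 5% of 60 libraries (at least 4, actinomycin D libraries left out) were tested, 17812 in all, of which 1092 had no count in the 6 libraries compared. Counts were tested with edgeR 4.0.16 in R 4.3.3 (TMM, glmQLFit, glmQLFTest, Benjamini-Hochberg), without a replicate block, within the 6 libraries of a contrast or, for differences between lines, over 12 libraries with an interaction term. A call needed adjusted p < 0.05 plus a level no less than 1.3 times, or no more than 0.7 times, the untreated one; genes called between the parental DLD-1 groups were removed. SE is the log2 fold change over the square root of F. The scripts were tested on simulated data. Alternatives were other normalizations and filters, DESeq2 1.42.0, a replicate block, 1 fit over 9 libraries, a fold of 1.3 both ways, leaving out each library and, added after the data were seen, a GC correction.

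Named genes were the 10 largest called changes each way with a mean of 50 counts or more and no overlap of groups, all members of the basket and TPR-named lists, CYP1A1, CYP1B1 and TIPARP, up to 4 called members of each other list or its largest uncalled one, and the 3 largest each way of the other comparisons. A few genes that the rule names are not reported here. The members and lists were chosen with earlier results of these data known. CPM precision is limited by counting and by 3 libraries a group.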

Additional observations from a re-analysis of the deposited data

Results flagged for a closer look

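Among the called genes reported here by the naming rule for 9 h, 12 responded to auxin differently in the NUP50 line and another line. The times were 9 h and 8 h, and the test was the interaction in edgeR (adjusted p under 0.05). These differences are log2 values of NUP50 minus the other line. The NUP50 side of each difference also served to name the genes, and no explanation was tested.

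Against NUP153, 3 genes that fell at 9 h were lower in the NUP50 response. The difference was -1.31 for SPIN4 (adjusted p = 0.00133), -1.15 for SAMD5 (adjusted p = 0.00173) and -1.10 for KDM7A-DT (adjusted p = 0.0276, all edgeR). SAMD5 was at 0.41 in the NUP153 line.

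Against RANGAP1 the difference was -1.64 for RASSF1 (adjusted p = 4.04e-06) and -0.81 for ALDH1A3 (adjusted p = 0.00125), both of which rose more in the RANGAP1 line. It was -0.47 for SAMD5 (adjusted p = 0.0351) and 2.62 for SNORD14E (adjusted p = 3.56e-05), which was at -1.47 in the RANGAP1 line (all edgeR).

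Against TPR the differences were higher in the NUP50 response for every gene listed here. They were 2.77 for RIMBP3 (adjusted p = 0.00213), 1.53 for ITPR1 (adjusted p = 0.0151), 1.503 for PLD6 (adjusted p = 0.00976), 1.26 for APC2 (adjusted p = 0.024), 1.22 for RASSF1 (adjusted p = 0.0136), 1.03 for FJX1 (adjusted p = 0.0358) and 0.93 for KRT8P46 (adjusted p = 0.048, all edgeR).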

How the results depend on the processing

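The 65 calls at 9 h became 360 with no filter on low counts, 170 with DESeq2 and 42 with the GC correction, and 1 to 444 when 1 library was left out. The 46 calls of 9 h against 3 h became 164 and 86 with no filter and with DESeq2, and 11 to 101 without 1 library. The number differing from NUP153 (50) became 260 with no filter and 202 with DESeq2, and 30 to 67 without 1 library. Of the 1726 differing from RANGAP1, leaving out 1 library gave 1068 to 2044. The 1736 differing from TPR became 2659 with DESeq2, 703 with the GC correction and 500 to 3893 without 1 library. Apart from the replicate block, given next, the remaining alternatives stayed within 1.5 times, and the cause of these shifts was not tested. The uncalled values that changed sign were those of NUP153 (0.00095 with the GC correction, -0.084 to 0.014 without 1 library), TPR (-0.074 to 0.12 without 1 library, and -0.0094 without untreated replicate 1), VWF (-0.30 to 0.037 without 1 library) and HOXA13 (-0.010 to 0.22 without 1 library).

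Same-numbered untreated and 9 h libraries had residual correlations of 0.611, 0.0811 and 0.481 for replicates 1 to 3. Untreated replicate 1 against 9 h replicate 3 was at -0.54, and untreated replicate 3 against 9 h replicate 1 was at -0.529. Untreated replicate 2 correlated best with 9 h replicate 3 (0.178). The same-numbered values were thus high for replicates 1 and 3 and low for replicate 2. Residuals within a group of 3 libraries are tied to one another, so these correlations are not separate observations. Whether same-numbered libraries were handled together is not known. With a replicate block the calls at 9 h were 520, those against 3 h 215, and the differences from RANGAP1 4346 and from TPR 2653. With the block and the GC correction the numbers were 324 at 9 h, 181 against 3 h and 4335 from RANGAP1. Depth limits genes of a few CPM, such as FAM53A and ANGPTL4.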
